A study of Mus musculus with 2 samples.

Results

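The genes described here are 9 genes whose products build or mark central myelin: Mbp, Mobp, Mag, Mog, Cnp, Cldn11, Bcas1, Ermn and Opalin. They were listed by name, and all 9 were found among the 21938 protein-coding genes of the GENCODE M21 annotation of mm10. Open chromatin was mapped by DNase-seq, which sequences DNA ends cut where DNase I can reach the DNA. The tissue was hindbrain of B6NCrl mice at postnatal day 0, with the sexes pooled, in 2 biological replicates that make up the only group. The replicates are separate tissue samples that share 1 donor entry, and each is a pool of animals of unstated number. With 1 group and 2 replicates no test between conditions can be made, and the values below are counts, the authors' peak scores and their spread over the replicates.

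Myelin is the stack of glial membrane that oligodendrocytes wrap around axons in the central nervous system. Oligodendrocyte precursors divide and migrate first, and the genes for the structural proteins of myelin are induced when the cells leave the cell cycle and differentiate. Sox10, Olig2 and Myrf are transcription factors known to act on these genes, and in the hindbrain the tracts of the brainstem are myelinated earlier than those of the cerebellum. Peaks and hotspots are positions of open chromatin and do not measure RNA, so whether the tissue was sampled before myelination was not measured.

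A peak is a site of about 150 bp that the authors called in 1 library, with a whole-number score from 1 to 150 whose scaling is not stated. Hotspots are their wider enriched regions, with a −log10 q capped at 100. Replicate 1 had 271150 peaks and replicate 2 had 172002, and read depth is unknown. A promoter peak is one that reaches to within 500 bp of a transcription start in the annotation. A shared region is a merged stretch with a peak of each replicate. It is distal when it lies over 500 bp from every annotated start site, of genes of any type. Each distal region was given to the protein-coding gene with the nearest start site, which does not show that it acts on that gene.

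Among all protein-coding genes most start-site clusters, defined below, lacked a peak in at least 1 replicate. The same held for the myelin genes. Counted gene by gene, 5 of 9 had a promoter peak in both replicates (Cnp, Cldn11, Mbp, Bcas1 and Ermn), against 66.3% of all protein-coding genes. Opalin had one in replicate 1 only. Mag, Mog and Mobp had none in either replicate, as had 28.7% of all protein-coding genes. Hotspots gave the same 5 genes in both replicates, against 66.7% of all genes. A start open in few of the cells and a start closed in all of them cannot be told apart in bulk tissue when no peak is called.

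Start sites within 500 bp of one another were then joined, which gave 18 start-site clusters for the 9 genes. Of these, 5 had a peak in both replicates, against 36.7% of the 52546 clusters of all protein-coding genes. A further 3 had a peak in replicate 1 only and 10 had none. For these no share of all clusters was counted. Of the 5, those of Cnp, Cldn11, Ermn and Mbp were at the 5' end of the gene, which in Mbp is not the start of the classic myelin transcripts, and that of Bcas1 was inside the gene.

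**Figure D1:**
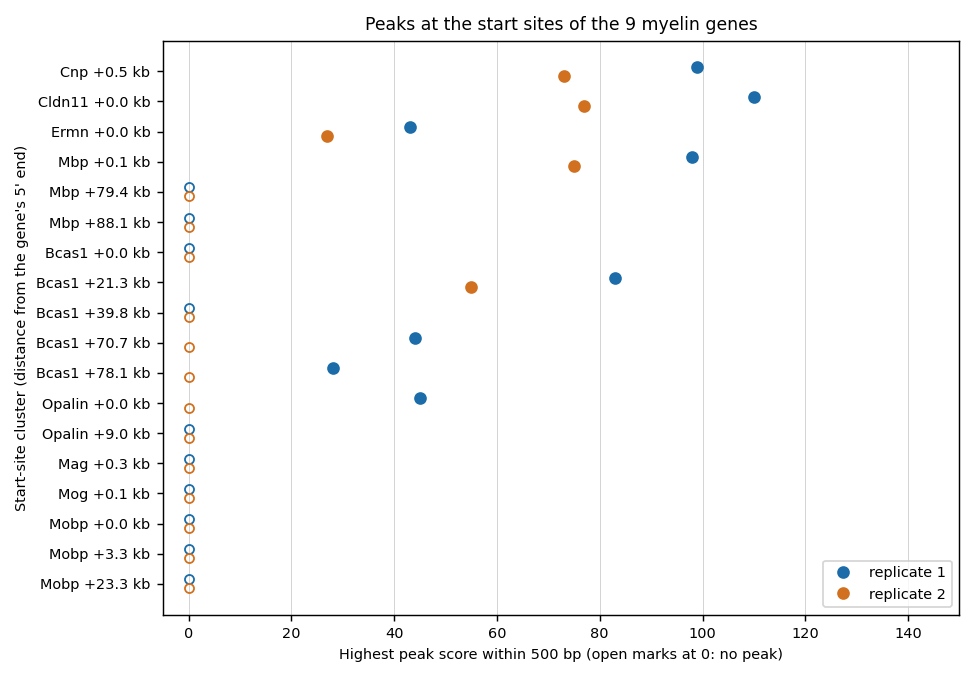
Highest authors' peak score (x axis, no unit) within 500 bp of each start-site cluster of the 9 genes (y axis, named by distance from the gene's 5' end), with replicate 1 in blue and replicate 2 in orange. Open marks at 0 stand for no peak. The 5 clusters with a peak of both replicates are those of Cnp, Cldn11 and Ermn, the first of Mbp and the Bcas1 cluster 21.3 kb into the gene.

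The 200 bases upstream of the 5' end are shown for the genes with the highest promoter peaks at that end of the gene outside Mbp (Cldn11 and Cnp) and for those with none (Mag, Mog and Mobp). These examples were picked because the contrast in CpG content is visible in them, and not all members follow it. They were read from the GRCm38 genome in the direction of transcription, they end at the base before the annotated start and they hold no annotated exon. Capitals mark CpG dinucleotides.
Cldn11, chr3:31149720-31149919, plus strand: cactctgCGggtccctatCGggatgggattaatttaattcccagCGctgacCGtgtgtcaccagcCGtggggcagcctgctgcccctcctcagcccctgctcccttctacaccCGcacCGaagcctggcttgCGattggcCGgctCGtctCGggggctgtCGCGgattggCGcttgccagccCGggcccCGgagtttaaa
Cnp, chr11:100574704-100574903, plus strand: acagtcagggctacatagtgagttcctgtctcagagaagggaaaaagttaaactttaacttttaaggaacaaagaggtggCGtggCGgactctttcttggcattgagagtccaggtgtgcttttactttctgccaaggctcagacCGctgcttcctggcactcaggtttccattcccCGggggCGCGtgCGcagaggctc
Mag, chr7:30914874-30915073, minus strand: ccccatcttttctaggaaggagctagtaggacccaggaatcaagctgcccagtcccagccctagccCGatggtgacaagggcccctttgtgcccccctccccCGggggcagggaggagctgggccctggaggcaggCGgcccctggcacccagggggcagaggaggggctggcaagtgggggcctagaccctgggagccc
Mog, chr17:37023399-37023598, minus strand: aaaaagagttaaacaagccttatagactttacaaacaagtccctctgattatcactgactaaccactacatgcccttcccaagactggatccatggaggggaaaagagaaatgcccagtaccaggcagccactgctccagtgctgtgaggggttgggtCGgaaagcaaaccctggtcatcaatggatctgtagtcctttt
Mobp, chr9:120149507-120149706, plus strand: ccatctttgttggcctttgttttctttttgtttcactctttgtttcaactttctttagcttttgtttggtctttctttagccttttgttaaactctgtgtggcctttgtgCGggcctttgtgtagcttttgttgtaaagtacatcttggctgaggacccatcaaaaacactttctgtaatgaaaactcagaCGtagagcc
Cldn11 has 16 CpG in these 200 bases and Cnp has 7, against 3 for Mag, 1 for Mog and 2 for Mobp. The same stretch, not shown, holds 3 CpG at Ermn, whose start had a peak in both replicates. It holds 4 at Bcas1, whose 5' end had no peak. Mag is poor in CpG although 69.5% of its bases are G or C.

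The CpG count within 500 bp of the cluster centre differed between the myelin starts in the same direction. Cldn11 had 54 CpG and Cnp 42, both in the eighth decile of all clusters, where 83.0% of clusters had a peak in both replicates. Mag had 16, Mog 11 and the main Mobp start 17, in deciles where 14.3%, 10.2% and 19.8% did. Over all clusters the share with a peak in both replicates went from 1.94% in decile 1 to 96.5% in decile 10. In the deciles of Mag, Mog and Mobp most clusters lacked a peak in at least 1 replicate. Ermn, with 13 CpG, had a peak in both replicates in a decile where 10.2% of clusters did. The main Mbp start, with 38 CpG in the eighth decile, had none.

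**Figure D2:**
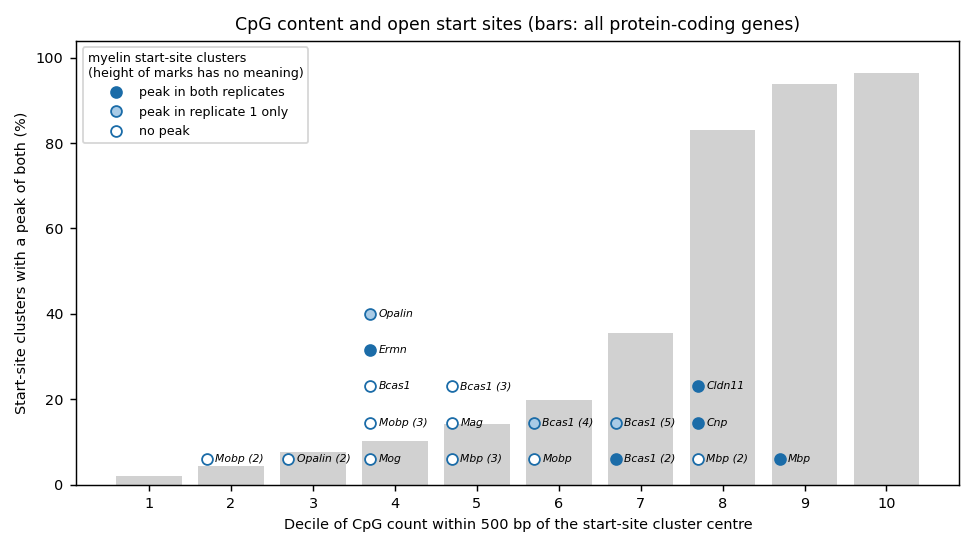
Bars give the percentage of all start-site clusters with a peak of both replicates (y axis) by decile of the CpG count within 500 bp of the cluster centre (x axis). Round marks place the 18 myelin clusters in their deciles, with the cluster number in brackets after the first. They are dark blue where both replicates had a peak, light blue for replicate 1 only and white for no peak. The second Mbp cluster is without a peak in a decile where 83.0% of clusters had one.

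Cnp encodes the cyclic nucleotide phosphodiesterase of myelin, which helps keep the cytoplasmic channels of the sheath open. Its start, on chromosome 11 from 100574904 to 100575891, had a highest peak score of 99 in replicate 1 and 73 in replicate 2. Cldn11 encodes the claudin of the tight junctions between myelin layers. Its single start, on chromosome 3 at 31149920, had scores of 110 and 77, from a peak at the same 150 bp in both replicates (31149836 to 31149985). Hotspots at both starts reached the cap of 100 in both replicates. These peaks were strong among all peaks (percentiles 90.7 and 84.3 for Cnp, 93.9 and 86.4 for Cldn11) and modest among promoters. Among genes with a promoter peak in both replicates they stood at percentiles 19.9 and 22.1 for Cnp and 26.6 and 24.2 for Cldn11.

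Ermn encodes ermin, an actin-linked protein of late oligodendrocytes. Its only start, on chromosome 2 at 58052864, had the lowest scores of the 5 genes, 43 in replicate 1 and 27 in replicate 2. The peaks lay 12 and 52 bp upstream of the start, and the hotspots had −log10 q of 4.38 and 2.56. Among genes with a promoter peak in both replicates they stood at percentiles 2.07 and 1.92. With only peaks at or above each list's median score, 4 members had promoter peaks in each library, against 13656 of all 21938 protein-coding genes. The Ermn peak of replicate 1 (43) is under that list's median of 45.

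Mbp encodes myelin basic protein, which seals the cytoplasmic faces of the membrane in compact myelin. The gene has 2 main groups of starts: a distal one that gives the golli transcripts, which are also made in neurons and immune cells, and one far downstream that gives the classic myelin transcripts. The peak was at the golli start, on chromosome 18 from 82475146 to 82475370, with scores of 98 and 75 and hotspots at the cap in both replicates. The classic start, 79.4 kb downstream from 82554470 to 82554580 and used by 11 coding transcripts, had no peak and no hotspot within 500 bp in either replicate. Its nearest peaks were 2716 bp away in replicate 1 (score 79) and 2736 bp away in replicate 2 (score 47). Another cluster, 88.1 kb into the gene and given by 1 noncoding transcript, had none within 500 bp either.

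Bcas1 marks oligodendrocytes that are about to myelinate. Its 5' end on chromosome 2, where 3 coding transcripts start (170427828 to 170427845), had no peak in either replicate within 500 bp. The nearest were 4431 bp away in replicate 1 (score 39) and 5663 bp away in replicate 2 (score 25). The promoter peak counted for the gene lay 21.3 kb downstream, at 170406509, with scores of 83 and 55. The 1 transcript that begins there carries the annotation tag for a 5' end that was not found, so the annotation does not establish a start at that site. Leaving out transcripts so tagged was an alternative chosen after the values were seen. The number of members with a peak of each replicate at a start was then 4 of 9. Among all 21938 protein-coding genes the number was then 14489. Replicate 1 alone had low peaks at the clusters 70.7 kb (score 44) and 78.1 kb (score 28) into the gene. The first of these lies within 1000 bp of a start of the antisense gene Bcas1os2. The promoter peak counted for Bcas1 overlaps a further gene, Bcas1os1, though no start of another gene lies within 1000 bp of that cluster.

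Opalin encodes a membrane glycoprotein of central myelin. Its start on chromosome 19 at 41077113 had a peak of score 45 in replicate 1, with a hotspot −log10 q of 3.58, and none in replicate 2, where the nearest peak was 4543 bp away. Mag encodes the adhesion molecule of the membrane next to the axon. Around its starts on chromosome 7 (30914308 to 30914873) the nearest peaks were 5283 bp away in replicate 1 (score 33) and 5023 bp away in replicate 2 (score 24). Mog encodes an immunoglobulin-like protein of the outer myelin surface, and its starts on chromosome 17 (37023199 to 37023398) had their nearest peaks 4898 bp away in replicate 1 (score 46) and 4818 bp away in replicate 2 (score 56). Mobp encodes a basic protein of compact myelin. Its main start on chromosome 9 (120149707 to 120149742) had its nearest peaks 7694 bp away in replicate 1 (score 38) and 7994 bp away in replicate 2 (score 23).

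Away from the start sites all 9 genes had at least 1 distal shared region, against 68.7% of all protein-coding genes. The total was 87 of the 107430 distal regions, and 48 of the 87 were nearest Mbp or Bcas1. Mbp and Bcas1 had 24 each, Opalin 14, Mobp 8, Cldn11 6, Cnp and Ermn 4 each, Mog 2 and Mag 1. The median was 6, against 2 over all protein-coding genes, and 4.11% of all genes had 24 or more. With replicate 1 alone the total was 137, with 43 at Bcas1, 18 at Mobp, 12 at Cldn11 and 3 each at Mag and Mog. With replicate 2 alone the total was 96, with 2 at Mag.

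**Figure D3:**
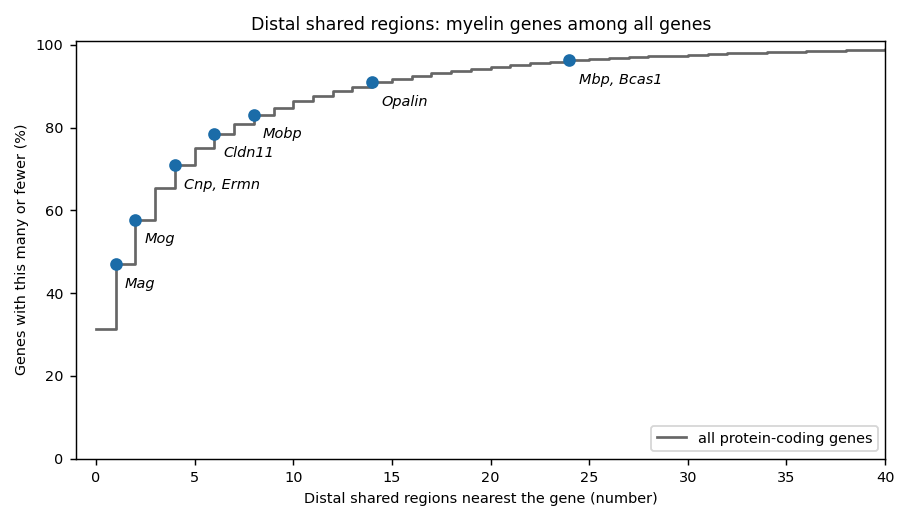
Percentage of protein-coding genes (y axis) with a given number of distal shared regions or fewer (x axis, cut at 40), as a gray line. Blue marks place the 9 genes, from Mag with 1 region to Mbp and Bcas1 with 24 each.

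The counts follow in part the stretch of genome that is nearest to each gene. Per 100 kb of that stretch Cnp was the densest with 22.1 regions, then Mbp with 16.0, Opalin with 15, Bcas1 with 11.3, Mog with 9.62, Mobp with 8.22, Cldn11 with 7.43, Ermn with 5.03 and Mag with 4.50. The median over the 9 genes was 9.62 and that over all genes 3.50. So Cnp, which has few regions, was denser than 97.9% of genes, and Bcas1, which has many, was denser than 87.7%. The value of Cnp rests on 4 regions in a stretch of 18.1 kb, and with hotspots in place of peaks Cnp had 2.

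Mag, Mog and Mobp differed in what lay around their starts. Among the 6304 genes without a promoter peak in either replicate the median was 0 distal shared regions. At least as many as Mag were found at 42.6% of these genes, as Mog at 27.3% and as Mobp at 6.04%. These shares hold for the nearest protein-coding start. With starts of any gene type Mobp had 2 regions, as had Mog. In Mag the only shared region lay in an intron 10.6 kb from the 5' end, with scores of 49 and 26, and it was not among the stronger peaks of both lists. In Mog no peak of either replicate lay inside the gene.

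Pooled over the members, the distal regions ranked higher than distal regions in general, but not at every gene. Their median score was 73 in replicate 1 and 53 in replicate 2, against 60 and 40 over all distal shared regions. Gene by gene, the replicate 1 median was under 60 at Mag (49) and Ermn (55.5) and above it at the others. In replicate 2 it was under 40 at Mag alone (26), with 40.5 at Ermn and 41 at Cldn11. Of the 87 pooled regions, 48 were nearest Mbp or Bcas1. By mean percentile, 16 of the 87 (18.4%) were in the top 10% of all distal regions. Replicate 1 had the higher score at 83 of 87 regions (95.4%) and at 96.0% of all distal regions. Of the replicate 2 peaks at these genes 89.9% overlapped a replicate 1 peak (98 of 109, exact binomial 95% interval 82.7 to 94.9), and of the replicate 1 peaks 61.5% overlapped one of replicate 2 (96 of 156, 53.4 to 69.2). Over all peaks the shares were 82.5% and 51.6%. The intervals cover counting error only, and neighbouring peaks are not independent.

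Peaks of a single replicate were weaker. Around the 9 genes 50 distal regions had a peak of replicate 1 only, with a median score of 40.5 (18 to 83), and 7 had one of replicate 2 only, with a median of 29 (22 to 39). Bcas1 had 19 of the former and Mobp 10, while Ermn had none.

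**Figure D4:**
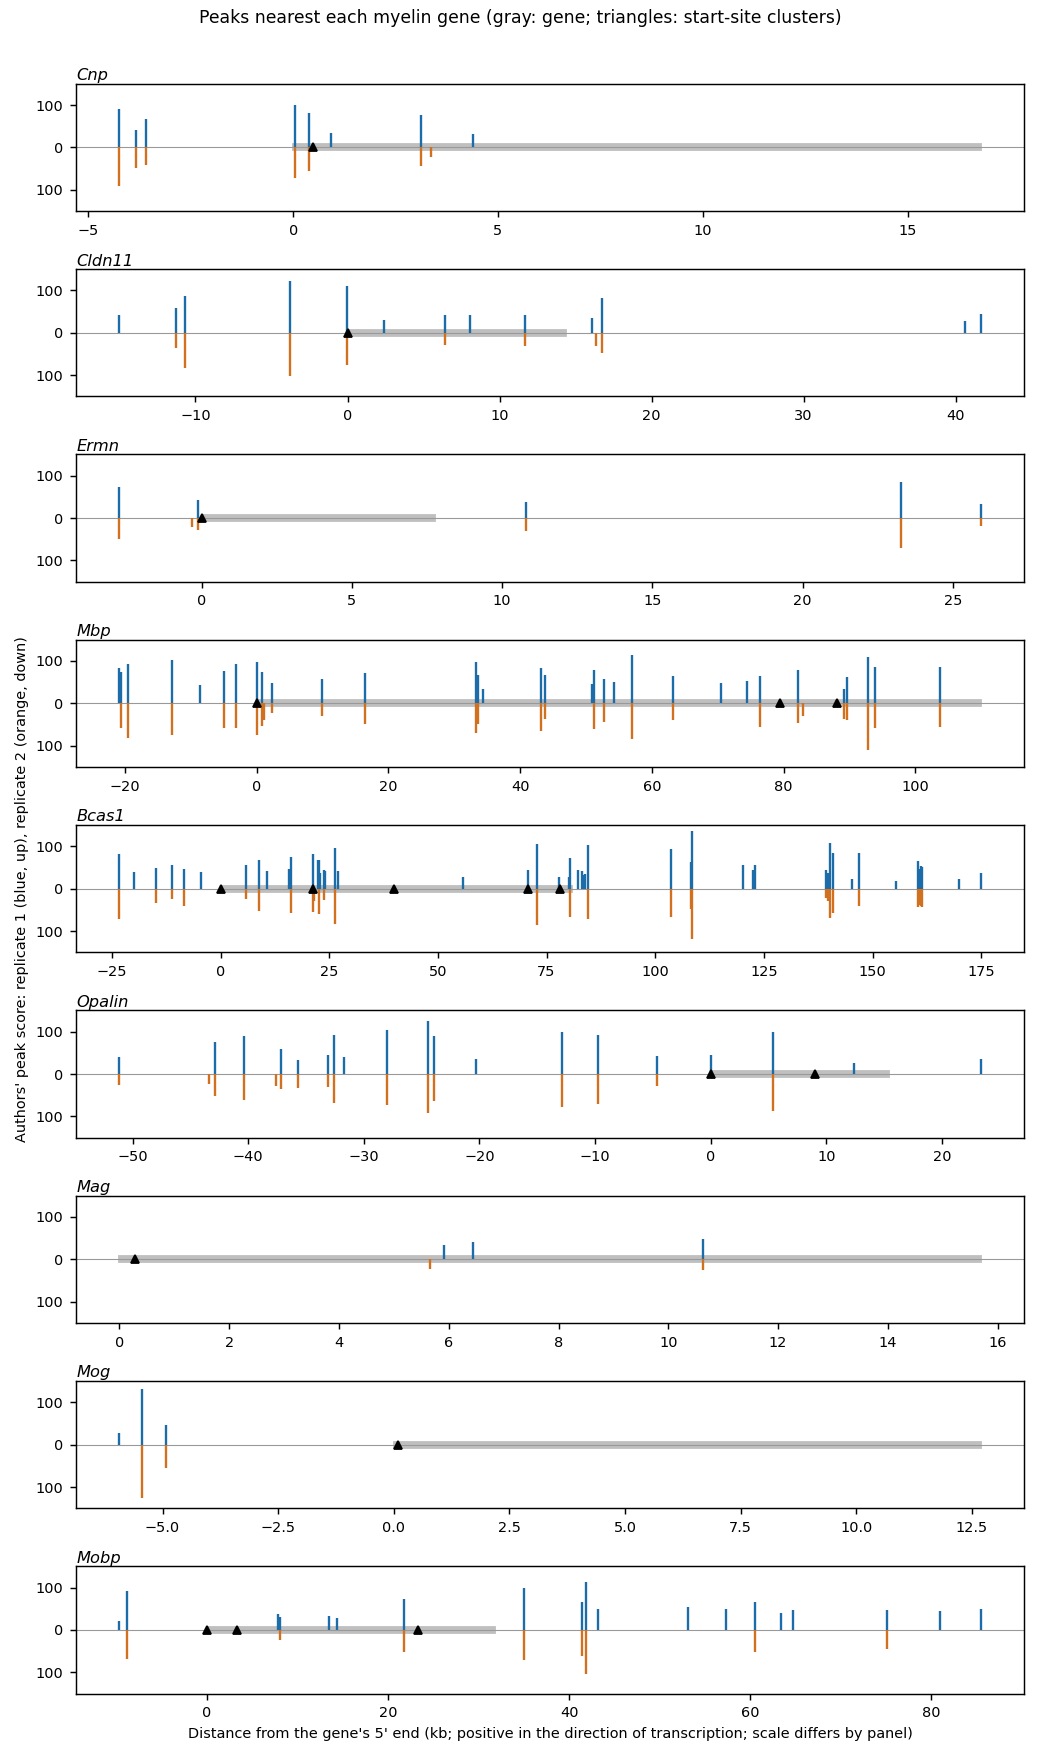
Authors' peak score (y axis, replicate 1 upward in blue and replicate 2 downward in orange) against distance from the 5' end of each gene in kb (x axis, positive in the direction of transcription, scale differing by panel). Gray bars are the genes and triangles the centres of start-site clusters. Mbp and Bcas1 carry peaks through and around the gene, most of the Opalin peaks lie upstream, and the Mog peaks lie only upstream.

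The strongest distal region outside exons is shown for 5 genes, as the peak of replicate 1 on the plus strand of GRCm38. Each is the site of highest rank at its gene, so a high rank follows in part from the choice. Each ranked above at least 98.3% of all distal shared regions. The highest regions of Cnp, Ermn and Mag, not shown, ranked above 92.7%, 84.3% and 22.6%. Capitals mark a Sox letter match in Cldn11 and a match to the CTCF consensus in Bcas1 and Mobp.
Mog, chr17:37028796-37028945, plus strand: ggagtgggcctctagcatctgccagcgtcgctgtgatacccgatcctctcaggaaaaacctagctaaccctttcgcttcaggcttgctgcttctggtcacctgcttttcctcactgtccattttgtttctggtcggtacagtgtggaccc
Bcas1, chr2:170319296-170319445, plus strand: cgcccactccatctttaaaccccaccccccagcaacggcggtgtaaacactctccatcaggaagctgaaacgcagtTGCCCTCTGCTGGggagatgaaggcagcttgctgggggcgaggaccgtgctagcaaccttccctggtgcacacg
Cldn11, chr3:31146076-31146225, plus strand: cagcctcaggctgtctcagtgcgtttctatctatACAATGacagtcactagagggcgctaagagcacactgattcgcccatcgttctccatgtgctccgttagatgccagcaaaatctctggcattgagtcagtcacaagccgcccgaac
Mobp, chr9:120191476-120191625, plus strand: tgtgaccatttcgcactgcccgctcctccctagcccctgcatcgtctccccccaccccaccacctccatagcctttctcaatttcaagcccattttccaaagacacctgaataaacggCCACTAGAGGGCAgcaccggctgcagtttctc
Opalin, chr19:41101496-41101645, plus strand: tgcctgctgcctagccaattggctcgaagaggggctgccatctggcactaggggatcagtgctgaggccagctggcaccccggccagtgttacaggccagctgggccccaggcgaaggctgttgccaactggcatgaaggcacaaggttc
Positions are given in kb from the 5' end of the gene, negative upstream. The Mog region lies at -5.44 kb in intergenic DNA, with scores of 131 and 127, and ranked above 99.8% of all distal shared regions. The Bcas1 region lies 108 kb from the 5' end, past the 3' end of the gene, with scores of 136 and 119, also above 99.8%. That of Cldn11 lies at -3.77 kb (121 and 102, above 98.9%), and that of Mobp 41.8 kb downstream of the 5' end (114 and 103, above 98.5%). The Opalin region, at -24.5 kb, had scores of 124 and 93 and ranked above 98.3%.

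Among the genes the arrangement of the regions differed. Of the 87 regions 33 lay inside the member itself, 23 only in another gene and 31 in no annotated gene, and 3 overlapped an exon. The same split was not counted over all distal shared regions, so these numbers describe the members alone. Counting distal shared regions in the gene body whatever their nearest start, the 9 genes had 34, with a median of 2 against 1 over all genes. At least 1 was found in 7 of 9 genes, all but Mog and Ermn, against 51% of all protein-coding genes. With replicate 1 alone the gene bodies held 55 regions.

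In Mbp, which spans 110 kb, 19 of the 24 regions lay inside the gene. Between the golli and the classic starts there were 13, past the classic starts 6, and upstream of the golli start 5. Within 10 kb of the classic start there were 3. The strongest by rank lay in an intron 92.7 kb from the 5' end (82567796 to 82567965), downstream of the classic start, with scores of 110 in replicate 1 and 109 in replicate 2, above 98.6% of all distal shared regions. The highest score of replicate 1 was 113, at an intronic region 56.9 kb from the 5' end that had 85 in replicate 2. The lowest shared scores at Mbp were 35 and 23. Counting the nearest start site of any gene type in place of protein-coding genes left 16 regions at Mbp.

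In Bcas1, which spans 80.9 kb, 7 of the 24 regions were inside the gene, 4 upstream and 13 past the 3' end. The farthest were a group of 4 near 161 kb from the 5' end (scores 47 to 66 in replicate 1 and 38 to 44 in replicate 2) and 1 region at 147 kb (85 and 42). A group of 4 near 140 kb had highest scores of 108 and 70. Only 15 of the 24 lay within 50000 bp of a Bcas1 start. With starts of all gene types the count was 11, and with the 5' ends of genes alone it was 17.

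The regions around Opalin and Ermn lay largely in neighbouring genes. Of the 14 nearest Opalin 13 were upstream and 12 of these were in introns of Tll2, a tolloid-like metalloprotease gene, up to 51.1 kb away. Only 1 lay in Opalin, 5.38 kb into the gene, with scores of 99 and 87. Among the stronger peaks of both lists Opalin had 9 regions. Of the 4 nearest Ermn, 3 lay in introns of Galnt5, which encodes an enzyme that attaches sugars to proteins. The strongest of them, 23.3 kb from the Ermn start, had scores of 84 and 71, well above the 43 and 27 at the start itself.

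At Mobp 1 region lay upstream, 2 in the gene and 5 past its 3' end in introns of Gm38642, a noncoding gene. When starts of all gene types were used 2 of the 8 were nearest Mobp. Around Cnp 3 of 4 regions lay between -4.24 and -3.58 kb in introns of Ttc25, a gene of ciliary motility, with scores of 91, 42 and 67 in replicate 1 and 90, 48 and 41 in replicate 2. With hotspots in place of peaks Cnp had 2 regions. The fourth, 3.12 kb into the gene, had scores of 77 and 44. Cldn11 had 3 regions upstream, 2 in the gene with scores of 42 and 30 or 32, and 1 past its 3' end. Only 3 of the 6 were among the stronger peaks of both lists, and 9 were counted when genes were represented by their 5' ends alone.

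Short sequences bound by the factors known for these genes were then searched in the central 150 bp of the distal regions, on both strands. The Sox letters (ACAAAG or ACAATG) were in 21 of 87 regions (24.1%, exact binomial 95% interval 15.6 to 34.5), against 20.6% of all distal shared regions. They were in 7 of 24 regions at Bcas1, 4 of 24 at Mbp, 3 of 14 at Opalin, 2 each at Mobp, Cldn11 and Ermn, 1 at Cnp and none at Mag or Mog. E-boxes of the types CAGCTG or CATCTG were in 25.3% against 33.5%. Myrf letters (CTGGCAC or CTGGTAC) were in 5.75% against 6.94%, the NFI letters TTGGCA in 14.9% against 18.8%, and Tead letters GGAATG in 6.90% against 8.83%. Tcf letters ATCAAAG, which share CAAAG with the first Sox form, were in 3.45% against 2.10%, and Yy1 letters GCCATNTT in 2.30% against 2.85%. For each of these single motifs the share over all regions lay inside the interval of the 87. The intervals treat the regions as independent, which neighbouring regions are not, and 48 of the 87 were nearest Mbp or Bcas1.

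The consensus of CTCF, a factor that anchors chromatin loops, was added to the search after the values were seen, as a core of 13 bases with a choice of 2 letters at some positions and no mismatch allowed. It was in 14 of 87 regions (16.1%, exact binomial 95% interval 9.09 to 25.5), against 5.25% of all distal shared regions. There were 3 each at Mbp, Mobp and Bcas1, 2 at Opalin, 1 each at Mag, Cldn11 and Ermn, and none at Mog or Cnp. Since strong regions hold it more often, the shares are also given by rank. In the top 10% of distal regions it was in 5 of 16 at these genes, against 15.2% of all, and in the other regions in 9 of 71 (12.7%), against 4.14% of all. The CTCF interval has the same limit as those of the other motifs. A match is a description of the sequence and not a measured binding site.

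**Figure D5:**
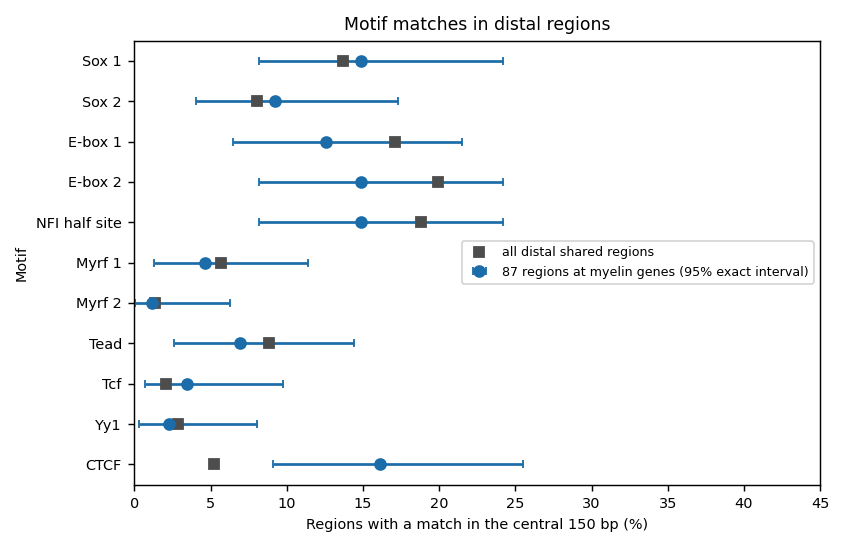
Percentage of distal shared regions with a match in their central 150 bp (x axis) for each motif (y axis; numbers tell apart the forms in the order given in the text). Blue marks with exact 95% intervals are the 87 regions at the myelin genes and gray squares all 107430. The squares lie inside the intervals except for CTCF, which was added after the values were seen. The intervals treat neighbouring regions as independent and are not a test.

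The median GC content of the central 150 bp was 52.7% against 50% over all distal regions. Regions without any CpG were fewer, 5 of 87 (5.75%) against 14.1%.

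The other lists were read the same way, beside the 66.3% and the median of 2 distal regions of all protein-coding genes. Their distal regions were not counted per 100 kb, so the numbers take no account of the stretch of genome nearest each gene. Of 28 other genes of central myelin 20 (71.4%) were open at a promoter in both replicates, 4 in replicate 1 only and 4 in neither. Among those without one were the gap junction gene Gjb1, the protease gene Klk6 and the lipid receptor gene S1pr5. Gjb1 and S1pr5 each had 4 distal shared regions, and Klk6 had 1. At the other end were the deacetylase gene Sirt2 (promoter scores 142 and 132), Nfasc, an adhesion gene of the node and paranode that neurons also express (130 and 113), Cntn2 (125 and 100) and Fa2h, which makes hydroxylated myelin lipids (110 and 79). Their median number of distal regions was 3, with the highest at Nfasc (31), Tspan2 (15), the galactolipid synthesis gene Ugt8a (10) and Cntn2 (9).

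Of 18 regulators of myelin genes 16 (88.9%) had promoter peaks in both libraries and 2 in replicate 1 only, and the median was 9 distal regions. The highest promoter scores were at the widely expressed Yy1 (147 and 143), Smarca4, Chd8 and Zfp24, and among those with the most distal regions were the remodeller gene Chd7 (49), Zfp536 (47) and the Wnt effector gene Tcf7l2 (33). Of 13 genes of oligodendrocyte precursors 11 (84.6%) had promoter peaks in both libraries, 1 in replicate 1 only and 1, Neu4, in neither. Their median was 13 distal regions, with 51 at Sox6, 31 at Tnr, 27 at Lhfpl3 and 22 at Pdgfra, the growth factor receptor gene of these cells (promoter scores 111 and 74).

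Genes of peripheral myelin, which Schwann cells make, had promoter peaks in both libraries at 8 of 12 (66.7%), in replicate 1 only at 2 and in neither at Cdh19 and Pmp2. Prx (128 and 126) and Egr2 were among those with the highest promoter scores. Pmp22 had 23 distal regions and the other 11 genes at most 9, with a median of 3. No marker of a cell type was used to name cells in this tissue, and the share of oligodendrocytes in it was not measured.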

How the data were processed

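Processed tables of DNase-seq were used for 2 replicates of postnatal day 0 hindbrain. Per the labels and the submitters' file list, the authors called peaks and hotspots for each library from its filtered mm10 alignments, without pooling (caller, threshold, aligner: not given in the sources used here). The deposited peak score has no stated scaling and was used to rank and describe peaks within a list. The deposited hotspot value is a −log10 q. Peaks on the main chromosomes numbered 270757 and 171790.

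Peaks were merged where they overlapped by at least 1 bp, giving 136714 shared regions, and placed on GENCODE M21 with Python 3.11.15, numpy 2.4.6 and pandas 2.3.3. Sequence came from the GRCm38 reference. RefSeq promoter entries of 7 members (9 entries) equalled it. Exact binomial intervals used scipy 1.17.1. Counting code was tested on simulated data. 

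The members and lists were chosen with earlier results of these data known, and no test was run over them. Of the 4 other lists, genes are named by the 4 highest promoter percentiles, the 4 with most distal regions and up to 4 with no promoter peak; some of these are not reported here.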

Additional observations from a re-analysis of the deposited data

How the results depend on the processing

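Read depth is unknown, and replicate 1 has 1.58 times as many peaks as replicate 2; the part of depth in the counts was not tested. Stronger peaks are those at or above each list's median score. The count of genes with a promoter peak in both replicates ran from 4 to 6 over 8 alternatives: 4 with the stronger peaks, with gene 5' ends as the only starts, with starts that were found and with the basic annotation, 5 with hotspots, with 1000 bp windows and with replicate 2 alone, and 6 with replicate 1 alone. The last pair of annotation settings was chosen after seeing the data. The number among all 21938 protein-coding genes moved with the setting as well, from 14541 in the main setting. It was 13656 with the stronger peaks, 13309 with gene 5' ends, 14489 with starts that were found and 14109 with the basic annotation. With 1000 bp windows it was 14995, with replicate 2 alone 14650 and with replicate 1 alone 15525. Of 87 distal regions, leaving out 1 replicate gave 96 to 137, and leaving out Mbp and Bcas1, also added after seeing the data, gave 39. The other settings gave 60 (starts of any gene type) to 84. Gene body regions, 34, became 38 to 55 when 1 replicate was left out, 24 with the stronger peaks, 33 with hotspots and 31 with a reciprocal overlap of 50%. The share of replicate 2 peaks found in replicate 1, 89.9%, was 84.4% with that overlap and 96.0% among the stronger peaks. All 9 genes had a distal region in the 6 alternatives run except with the stronger peaks, where Mag had none and the number was 8.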
